A study of Homo sapiens with 8 samples.

Results

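The 10 genes described here are CDH1, EPCAM, CDH2, VIM, FN1, ZEB1, ZEB2, SNAI1, SNAI2 and TWIST1, the usual markers and transcription factors of the epithelial-mesenchymal transition (EMT). They were chosen by symbol from the 23391 genes of the count table, and all 10 were found in it. Of these, 2 mark epithelial cells, 3 mark mesenchymal cells and 5 encode transcription factors. Of the 10, 8 had enough reads to be tested, and CDH2 and TWIST1 did not.

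In the EMT, epithelial cells loosen their contacts to each other and take on a motile, mesenchymal form. E-cadherin, the product of CDH1, holds neighbouring epithelial cells together, and EPCAM is a second epithelial surface protein. Mesenchymal cells carry the intermediate filament vimentin (VIM), the matrix protein fibronectin (FN1) and often N-cadherin (CDH2). The zinc finger factors ZEB1, ZEB2, SNAI1 and SNAI2 are known to bind E-box sequences and to repress CDH1, and TWIST1 is a basic helix-loop-helix factor of the same programme. In carcinoma lines many intermediate states are known, in which both kinds of markers are present.

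RNA-Seq was performed on DU145, a human prostate cancer cell line, in 8 libraries, 2 for each of 4 groups. DU145-pc3.1 cells carry the empty pcDNA3.1-zeo (+) vector and DU145-Esrrb cells carry the same vector with Esrrb, an orphan nuclear receptor. Each is a pool of stably transfected cells and not a single clone, and both were selected with Zeocine for 3 weeks. Both pools were sequenced without ligand or after incubation with 3 μM DY131, a synthetic ligand of Esrrb and Esrrg, in medium with charcoal-stripped serum. The length of the DY131 treatment is not given in the sources used here. The 2 libraries of a group are described as biological replicates by the study. It also states that 2 biological replicates of each transfection were pooled, so how independent the libraries of a group are is not clear. Esrrb expression and any other difference between the 2 selected pools cannot be told apart in this design. The libraries of DY131-treated DU145-Esrrb cells carry no replicate number and are called a and b here.

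Between 7858743 and 11551690 reads were counted on genes per library. The lowest 2 totals belonged to DY131-treated DU145-Esrrb cells. Reads on ESRRB went with the labels, with 0 to 3 reads in the 4 DU145-pc3.1 libraries and 99 to 143 reads in the 4 DU145-Esrrb libraries. The replicates differed by more than counting error, with a chi-square per degree of freedom of 1.29 to 7.1, and the largest spread was in DY131-treated DU145-pc3.1 cells. DU145 was checked against markers of its kind. The simple epithelial keratins KRT8, KRT18 and KRT19 were at means of 1092, 811 and 470 cpm (read counts scaled to a common effective library size) in DU145-pc3.1 cells. The prostate luminal genes KLK2 and KLK3 had 0 reads in every library. A list of 7 fibroblast genes summed to between 3 and 6.16 cpm per library with DCN at 0 throughout. A list of 5 leukocyte genes summed to between 0.651 and 2.57 cpm with CD3E at 0, and 4 endothelial genes to between 0.391 and 1.29 cpm. These values are bulk measures, so a lower level in every cell and fewer cells with the transcript cannot be told apart.

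RefSeq promoter sequences on GRCh38.p14 were at hand for 5 of the 10 members, namely VIM, FN1, CDH2, ZEB1 and ZEB2. Those of ZEB1 and VIM are shown because both genes had higher counts after DY131 in both cell pools. Each is the 250 bases before an annotated start, 5′ to 3′ on the plus strand. Capitals mark the E-box CAGGTG (or CACCTG on the other strand), the letters that ZEB and SNAI factors are known to bind.
ZEB1, chr10:31318167-31318416: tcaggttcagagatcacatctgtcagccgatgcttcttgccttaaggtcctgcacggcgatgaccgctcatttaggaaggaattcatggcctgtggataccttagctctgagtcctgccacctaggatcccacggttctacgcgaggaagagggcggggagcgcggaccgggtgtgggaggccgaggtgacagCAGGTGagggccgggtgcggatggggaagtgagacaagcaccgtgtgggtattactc
VIM, chr10:17227991-17228240: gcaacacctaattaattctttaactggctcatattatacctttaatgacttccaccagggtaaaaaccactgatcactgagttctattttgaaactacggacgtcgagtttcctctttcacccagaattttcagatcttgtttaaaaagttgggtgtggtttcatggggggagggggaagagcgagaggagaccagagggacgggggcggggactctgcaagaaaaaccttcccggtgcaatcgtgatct
The ZEB1 sequence holds 1 E-box and the VIM sequence 0. Among 35116 promoter sequences of this length, 17.5% hold it. The letters AAGGTCA (or TGACCTT), the core of the response element of estrogen related receptors, were in neither sequence and in 3.44% of all promoters. Of the 7 annotated ZEB1 starts, 2 had the E-box before them and 0 had AAGGTCA. A match or its lack is a property of these letters alone.

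The members lie on 7 chromosomes of GRCh38 (GENCODE 29). CDH1 lies at chr16:68737225-68835548 and EPCAM at chr2:47345158-47387601, both on the plus strand. VIM spans chr10:17228259-17237593 and ZEB1 chr10:31318495-31529814, also on the plus strand. FN1 (chr2:215360440-215436172), ZEB2 (chr2:144364364-144524583) and CDH2 (chr18:27950966-28177446) are on the minus strand. SNAI1 is at chr20:49982999-49988886 on the plus strand, SNAI2 at chr8:48917604-48921740 and TWIST1 at chr7:19020991-19117672 on the minus strand. Reads on a gene count its exons, coding and untranslated alike. Exons of CDH1, VIM, CDH2, ZEB1, ZEB2 and TWIST1 overlap an annotated gene on the opposite strand, for example VIM-AS1 and ZEB1-AS1. The kit marked strand, but whether the counting used it is not stated, so reads of these antisense partners cannot be told apart. EPCAM shares 2.57% of its 50-base windows with other transcripts, ZEB2 shares 2.12%, mostly with its pseudogene ZEB2P1, and the other 8 members share none.

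To place the members, levels in untreated DU145-pc3.1 cells were divided by transcript length. On this scale of cpm per kilobase, VIM was the highest at 788 ± 33.2 (SD, n = 2). EPCAM followed with 60 ± 1.06 and CDH1 with 33 ± 1.18 cpm per kilobase (SD, n = 2). The transcription factors and FN1 were far lower, with SNAI1 at 4.73 ± 0.115, ZEB1 at 3.97 ± 0.319, FN1 at 2.8 ± 0.574 and SNAI2 at 2.27 ± 0.193 cpm per kilobase (SD, n = 2). FN1 and SNAI2 did not differ beyond their spread. ZEB2 was last among the detected members at 0.134 ± 0.0561 cpm per kilobase (SD, n = 2). DU145-pc3.1 cells therefore held reads of both epithelial markers and of vimentin.

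CDH2 and TWIST1 were not detectable at this depth. On CDH2, 1 read was counted in DU145-Esrrb replicate 1 and 0 in the other 7 libraries. On TWIST1, 0 reads were counted in all 8 libraries. A count of 0 allows up to 3 counts, which is 0.254 to 0.391 cpm depending on the library. Intervals and floors of this kind cover counting error only.

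**Figure D1:**
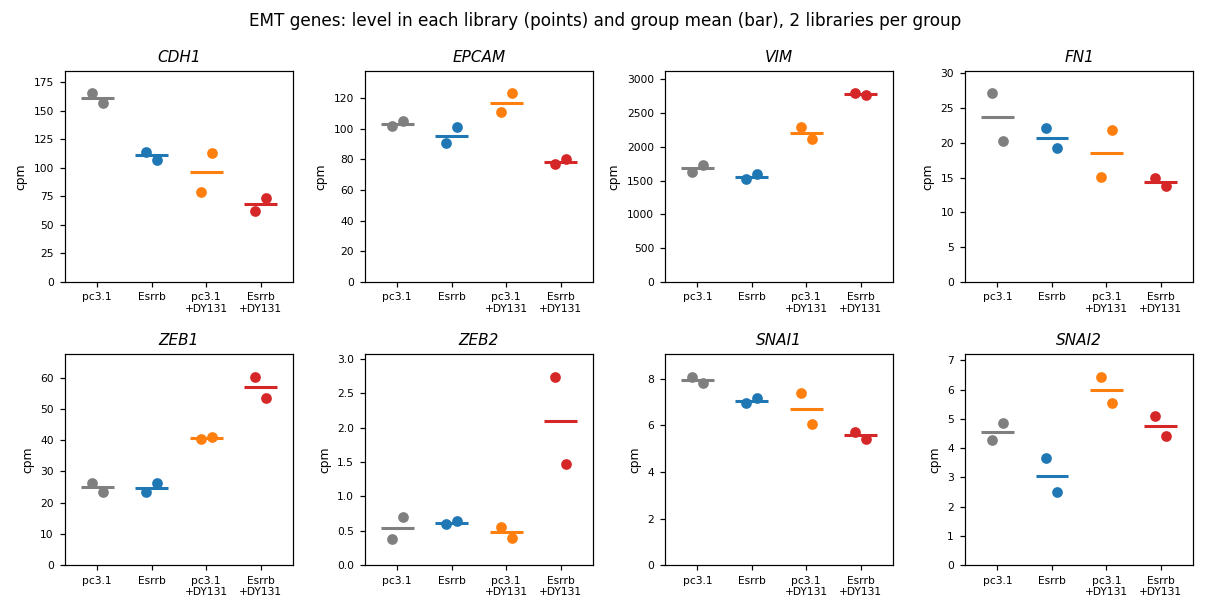
Level of the 8 tested EMT genes in each library, in cpm on linear axes that start at 0, for untreated and DY131-treated DU145-pc3.1 and DU145-Esrrb cells. Points are the 2 libraries of a group and the bar is their mean. CDH1 stepped down from 161 to 67.7 cpm across the groups in the order drawn, while VIM and ZEB1 were higher in the 4 treated libraries than in the 4 untreated ones.

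Counts were compared in edgeR's quasi-likelihood F test with all 8 libraries in 1 model and p-values adjusted by Benjamini and Hochberg's method over 13856 genes. A gene passed at an adjusted p under 0.05. The fold threshold, where named, is a log2 fold change of at least 1 in size. The median log2 fold change of all tested genes lay between -0.00 and 0.01 in each comparison.

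The first comparison asked what Esrrb expression did without ligand. Between untreated DU145-Esrrb and DU145-pc3.1 cells, CDH1 was lower and the other 7 tested members did not pass. CDH1 was at 165 and 157 cpm in the DU145-pc3.1 replicates and at 114 and 107 cpm in the DU145-Esrrb replicates. The libraries did not overlap. The log2 fold change was -0.54 ± 0.11 (SE, edgeR adjusted p = 0.0114). This call was lost with DESeq2 (adjusted p = 0.148) and without any single library of the 4 compared (edgeR adjusted p = 0.0702 to 0.137), while the log2 fold change stayed between -0.59 and -0.50. Of all tested genes, 4.18% passed in this comparison, and 0.577% also reached the fold threshold, which no member did.

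EPCAM had 102 and 105 cpm in the control pool against 90.6 and 101 cpm in the Esrrb pool, a log2 fold change of -0.11 (95% interval -0.27 to 0.04). VIM had 1631 and 1732 cpm against 1522 and 1598 cpm, a log2 fold change of -0.11 (95% interval -0.24 to 0.02). Both were lower in both DU145-Esrrb libraries, by less than the test could call. ZEB1, with 26.3 and 23.5 cpm against 23.4 and 26.2 cpm, had a log2 fold change of -0.01 (95% interval -0.22 to 0.21). SNAI2 went from 4.29 and 4.84 cpm to 3.65 and 2.48 cpm, a log2 fold change of -0.57 ± 0.24 (SE, edgeR adjusted p = 0.234). Its fold was as large as that of CDH1, but it rested on 27 to 55 reads a library. FN1 (-0.19), SNAI1 (-0.17) and ZEB2 (0.17 on the log2 scale) did not pass either.

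**Figure D2:**
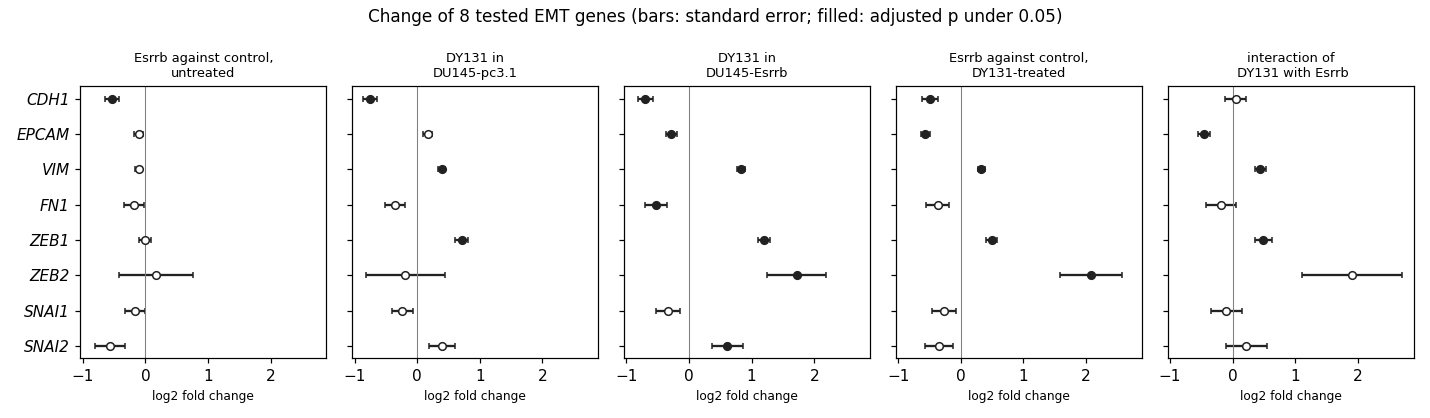
Log2 fold change of the 8 tested EMT genes in 5 comparisons, with bars of 1 standard error from edgeR's quasi-likelihood fit and filled points at an adjusted p under 0.05. CDH1 lay left of 0 in both Esrrb and both DY131 comparisons and at 0.05 in the interaction, while VIM and ZEB1 lay right of 0 in the 2 DY131 comparisons, in the comparison of treated pools and in the interaction.

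The second comparison asked whether DY131 changed these genes in cells without the Esrrb vector. In DU145-pc3.1 cells CDH1 fell and VIM and ZEB1 rose with DY131, and 5 of the 8 tested members did not pass. The 3 that passed are read against the 37.4% of all tested genes that passed in this comparison. CDH1 went from 165 and 157 cpm to 78.8 and 113 cpm, a log2 fold change of -0.75 ± 0.11 (SE, edgeR adjusted p = 0.000111). The treated replicates differed widely from each other, yet both lay below both untreated ones. Without treated replicate 1 the value was -0.50 and without treated replicate 2 it was -1.03.

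VIM rose from 1631 and 1732 cpm to 2290 and 2122 cpm, a log2 fold change of 0.39 ± 0.06 (SE, edgeR adjusted p = 0.000126). ZEB1 rose from 26.3 and 23.5 cpm to 40.2 and 40.9 cpm, a log2 fold change of 0.71 ± 0.10 (SE, edgeR adjusted p = 4.73e-05). Neither gene's libraries overlapped between the groups, and neither reached the fold threshold, as 4.19% of all tested genes did. The other epithelial marker did not go with CDH1. EPCAM was at 111 and 123 cpm with DY131, above both untreated libraries, with a log2 fold change of 0.17 ± 0.07 (SE, edgeR adjusted p = 0.0662). It passed with at least 10 counts in every library (edgeR adjusted p = 0.0475), with an offset for length and GC content (edgeR adjusted p = 0.0224) and without treated replicate 1 (0.26, edgeR adjusted p = 0.00364).

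FN1 had 27.1 and 20.2 cpm before and 15.1 and 21.9 cpm after DY131, and its libraries overlapped. The log2 fold change of FN1 was -0.35 ± 0.16 (SE, edgeR adjusted p = 0.101), and it passed without untreated replicate 2 (-0.55, edgeR adjusted p = 0.0357) or treated replicate 2 (-0.64, edgeR adjusted p = 0.00126), with no low-count filter (edgeR adjusted p = 0.0155) and with an offset for length and GC content (-0.57, edgeR adjusted p = 0.00714). SNAI1 (-0.24), SNAI2 (0.39) and ZEB2 (-0.19 on the log2 scale) did not pass. SNAI2 reached 6.44 and 5.55 cpm, above both untreated libraries.

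The third comparison was DY131 in Esrrb-expressing cells. There CDH1, EPCAM and FN1 fell, and VIM, ZEB1, ZEB2 and SNAI2 rose, while SNAI1 did not pass. This is 7 of 8 tested members, or 6 of 7 without ZEB2, against 58.7% of all tested genes. Passing at any fold was common here, with 29.2% of all tested genes higher and 29.5% lower. ZEB1 and ZEB2 were past the fold threshold, as were 12.0% of all tested genes.

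ZEB1 went from 23.4 and 26.2 cpm to 60.3 and 53.5 cpm, a log2 fold change of 1.20 ± 0.10 (SE, edgeR adjusted p = 6.38e-08). VIM went from 1522 and 1598 cpm to 2794 and 2771 cpm, a log2 fold change of 0.83 ± 0.06 (SE, edgeR adjusted p = 2.45e-08). For both genes every treated library was above every untreated one. CDH1 went from 114 and 107 cpm to 62.3 and 73.2 cpm, a log2 fold change of -0.70 ± 0.12 (SE, edgeR adjusted p = 0.00016). These were the lowest CDH1 values of the 8 libraries.

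EPCAM was at 76.9 and 80.1 cpm after DY131, below its 90.6 and 101 cpm before, with a log2 fold change of -0.28 ± 0.08 (SE, edgeR adjusted p = 0.0044). Without untreated replicate 2 it no longer passed (-0.21, edgeR adjusted p = 0.0636). FN1 went from 22.1 and 19.2 cpm to 14.9 and 13.8 cpm, a log2 fold change of -0.53 ± 0.18 (SE, edgeR adjusted p = 0.0176). Fibronectin is listed as a mesenchymal marker, and it moved the other way from vimentin. FN1 lost its call without untreated replicate 1 (-0.43), treated library a (-0.59) or treated library b (-0.48), with an edgeR adjusted p = 0.0602 to 0.123.

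ZEB2 was at 4 to 8 reads in each of the 6 other libraries and at 21 and 13 reads in DY131-treated DU145-Esrrb cells. Its levels there were 2.74 and 1.47 cpm, against 0.594 and 0.643 cpm before treatment. It passed the low-count filter through these 2 libraries alone, so that a gene in its place had to be higher in them. The log2 fold change was 1.72 ± 0.47 (SE, edgeR adjusted p = 0.00493), and with DESeq2 the adjusted p was 0.0556. SNAI2 had 5.08 and 4.41 cpm after and 3.65 and 2.48 cpm before DY131, a log2 fold change of 0.61 ± 0.25 (SE, edgeR adjusted p = 0.045). This call was lost in 9 of 17 alternatives, among them DESeq2 (adjusted p = 0.169), and the fold was 0.37 without untreated replicate 2 and 0.92 without untreated replicate 1. SNAI1, at 5.73 and 5.42 cpm after and 6.95 and 7.17 cpm before DY131, had a log2 fold change of -0.34 ± 0.19 (SE, edgeR adjusted p = 0.125).

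The values of the comparisons that use the treated DU145-Esrrb libraries moved with exon structure. For each gene, the annotation gave the share of 50-base windows that span an exon junction. Across 13664 genes, not independent of each other, the Spearman correlation of this share with the log2 fold change was -0.374 for DY131 in DU145-Esrrb cells and 0.0101 where DY131 was added to DU145-pc3.1 cells. It was -0.475 between the treated pools, -0.458 for the interaction and -0.0383 for Esrrb alone. The share was 26.3% in FN1, 23.2% in EPCAM, 20.9% in VIM and 15.2% in CDH1, and from 5.0% to 9.8% in the 4 tested factors. FN1 and EPCAM, which fell, had the highest shares, but VIM, which rose, was close behind them. ZEB1, ZEB2 and SNAI2, which rose, had low shares, and so did SNAI1, which had a log2 fold change of -0.34.

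The comparison was repeated with an offset per library that followed this share. CDH1 then had a log2 fold change of -0.69, VIM of 0.96, ZEB1 of 1.02 and ZEB2 of 1.62, and all 4 still passed. EPCAM (-0.11, edgeR adjusted p = 0.244), FN1 (-0.28, edgeR adjusted p = 0.206) and SNAI2 (0.41, edgeR adjusted p = 0.184) no longer passed. SNAI1, with a share of 6.0%, passed with a log2 fold change of -0.53 (edgeR adjusted p = 0.0251).

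**Figure D3:**
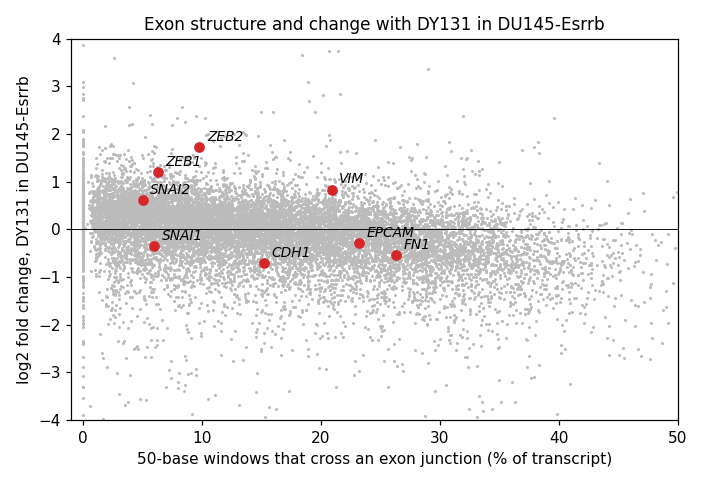
Share of a gene's 50-base transcript windows that cross an exon junction (percent) against its log2 fold change with DY131 in DU145-Esrrb cells, for 13664 genes (grey, of which 117 lie outside the axes) and the 8 tested EMT genes (red). The grey points slope down to the right, VIM at 20.9% and ZEB1 at 6.3% lie above 0, and EPCAM at 23.2% and FN1 at 26.3% lie below it.

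The fourth comparison set the treated pools against each other. CDH1 and EPCAM were lower, and VIM, ZEB1 and ZEB2 were higher, in treated DU145-Esrrb than in treated DU145-pc3.1 cells. This is 5 of 8 tested members, or 4 of 7 without ZEB2, against 50.4% of all tested genes. ZEB2 alone was past the fold threshold, as were 8.21% of all tested genes. It shares its libraries with the comparisons above.

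EPCAM was at 76.9 and 80.1 cpm in treated DU145-Esrrb and at 111 and 123 cpm in treated DU145-pc3.1 cells, a log2 fold change of -0.57 ± 0.07 (SE, edgeR adjusted p = 1.51e-05). VIM was at 2794 and 2771 cpm against 2290 and 2122 cpm, a log2 fold change of 0.33 ± 0.06 (SE, edgeR adjusted p = 0.000284). ZEB1 was at 60.3 and 53.5 cpm against 40.2 and 40.9 cpm, a log2 fold change of 0.49 ± 0.09 (SE, edgeR adjusted p = 0.00039). In each of these genes the 2 pools did not overlap. With the junction offset the log2 fold changes were -0.38, 0.47 and 0.29, and all 3 still passed.

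CDH1 was at 62.3 and 73.2 cpm against 78.8 and 113 cpm, a log2 fold change of -0.49 ± 0.13 (SE, edgeR adjusted p = 0.00392). A single library decided its size, since the value was -0.75 without treated DU145-pc3.1 replicate 1 and -0.21 without replicate 2. Without treated DU145-Esrrb library a it did not pass (-0.39, edgeR adjusted p = 0.0697). ZEB2, at 2.74 and 1.47 cpm against 0.56 and 0.396 cpm, had a log2 fold change of 2.08 ± 0.50 (SE, edgeR adjusted p = 0.00283), with the reservation on its filter given above. FN1 (-0.37), SNAI1 (-0.27) and SNAI2 (-0.35 on the log2 scale) did not pass. FN1 did pass without treated DU145-pc3.1 replicate 1 (-0.63, edgeR adjusted p = 0.00149), with no low-count filter (edgeR adjusted p = 0.0194) and with an offset for length and GC content (-0.45, edgeR adjusted p = 0.039).

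Whether the 2 pools answered DY131 differently was tested as an interaction. EPCAM, VIM and ZEB1 passed, 3 of 8 tested members against 33.7% of all tested genes. None of the 3 reached the fold threshold, which 6.28% of all tested genes did. The response of EPCAM was 0.17 in DU145-pc3.1 and -0.28 in DU145-Esrrb cells on the log2 scale, a difference of -0.46 ± 0.10 (SE, edgeR adjusted p = 0.00341). For VIM the responses were 0.39 and 0.83, a difference of 0.44 ± 0.09 (SE, edgeR adjusted p = 0.00104). For ZEB1 they were 0.71 and 1.20, a difference of 0.49 ± 0.14 (SE, edgeR adjusted p = 0.0121). VIM and ZEB1 thus rose in both pools and more in the pool with Esrrb, but the difference for ZEB1 lost its call in 5 of 15 alternatives.

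CDH1 fell by nearly the same factor in both pools. Its difference was 0.05 on the log2 scale (SE 0.17, 95% interval -0.31 to 0.41, edgeR adjusted p = 0.851). The interval leaves room for a difference of either sign, and the value was 0.33 (edgeR adjusted p = 0.0107) without treated DU145-pc3.1 replicate 2 and -0.21 without replicate 1. With the junction offset VIM kept its call (0.58), whereas EPCAM (-0.27, edgeR adjusted p = 0.0802) and ZEB1 (0.31, edgeR adjusted p = 0.117) did not. ZEB1 also lost it with DESeq2 (adjusted p = 0.0628) and without DU145-pc3.1 replicate 1, DU145-Esrrb replicate 1 or treated library a (0.40 to 0.41). ESRRB itself was at 8.82 and 9.1 cpm in untreated and at 13.7 and 16.2 cpm in treated DU145-Esrrb cells, a log2 fold change of 0.74 ± 0.19 (SE, edgeR adjusted p = 0.00315). Its part in these differences was not tested.

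The balance of vimentin to E-cadherin was followed as the number of VIM reads per CDH1 read, a ratio in which library size cancels. It was 9.87 and 11 in DU145-pc3.1 cells, 13.4 and 14.9 in DU145-Esrrb cells, 29.1 and 18.8 in DY131-treated DU145-pc3.1 cells, and 44.9 and 37.9 in DY131-treated DU145-Esrrb cells. No 2 groups overlapped. The means were 10.4 ± 0.816, 14.1 ± 1.08, 23.9 ± 7.26 and 41.4 ± 4.96 (SD, n = 2). With the junction offset, chosen for this ratio after the data were seen, the treated DU145-Esrrb libraries were at 47.7 and 40.2 and the untreated ones at 13.1 and 14.7. Per kilobase of transcript the treated DU145-Esrrb cells had 94.7 ± 11.4 VIM for each CDH1 (SD, n = 2), so vimentin reads were in excess of E-cadherin reads in every group. The ratio joins genes that were themselves compared above and has no test of its own.

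**Figure D4:**
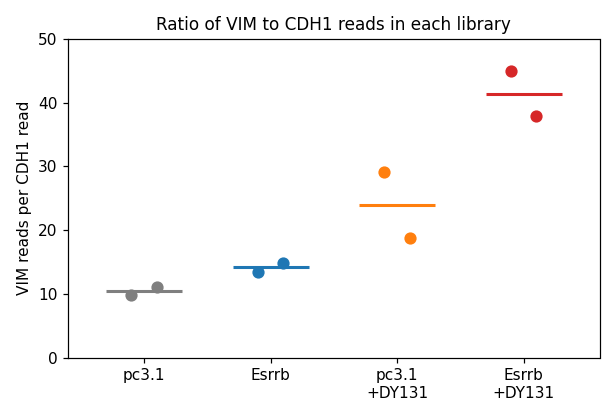
VIM reads per CDH1 read in each of the 8 libraries (points) with the group mean (bar), on a linear axis from 0. The ratio lies at 9.87 and 11 in untreated DU145-pc3.1 cells and at 44.9 and 37.9 in DY131-treated DU145-Esrrb cells, and the 4 groups do not overlap.

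Other genes of the epithelial programme were taken from a list of 25, of which 21 were tested. It holds claudins and other tight junction genes, the splicing regulators ESRP1 and ESRP2, and epithelial proteases and transcription factors. With Esrrb alone 3 of the 21 passed, and CLDN1, CLDN4 and SPINT1 were lower, where 1.68% of all tested genes were higher and 2.50% lower. CLDN4 (-0.57) did not pass without DU145-pc3.1 replicate 1, DU145-Esrrb replicate 2 or either treated DU145-Esrrb library (-0.57 to -0.34, edgeR adjusted p = 0.0851 to 0.424). SPINT1 (-0.31) did not pass with DESeq2 (adjusted p = 0.119) or without any single library of the 4 compared (edgeR adjusted p = 0.0905 to 0.241). With DY131 in DU145-pc3.1 cells, 5 were higher and 9 lower, against 18.9% and 18.5% of all tested genes. With DY131 in DU145-Esrrb cells, 4 were higher and 11 lower, against 29.2% and 29.5%. The medians of the list in these 3 comparisons were -0.28, -0.15 and -0.25, against medians of all tested genes between -0.00 and 0.00.

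CLDN4, a tight junction claudin, was at 65.6 and 48.3 cpm in DU145-pc3.1 cells, 44.7 and 31.3 cpm in DU145-Esrrb cells, 25.2 and 29.2 cpm in treated DU145-pc3.1 cells and 13.2 and 13.9 cpm in treated DU145-Esrrb cells. It stepped down like CDH1, with log2 fold changes of -1.06 (edgeR adjusted p = 7.35e-05) and -1.49 (edgeR adjusted p = 6.52e-06) with DY131 in the 2 pools. TJP3, a scaffold of tight junctions, had 53 to 79 reads in the untreated libraries, 10 and 19 in treated DU145-pc3.1 and 0 and 9 in treated DU145-Esrrb cells. ELF3, an epithelial transcription factor, fell from 48.7 and 40.1 cpm to 9.15 and 13.7 cpm in DU145-pc3.1 and from 35.2 and 36.2 cpm to 9.64 and 13 cpm in DU145-Esrrb cells. CLDN1 went against these. It was lower with Esrrb alone (-0.62, edgeR adjusted p = 0.000318) and rose with DY131 by a log2 fold change of 0.53 in DU145-pc3.1 and 1.40 in DU145-Esrrb cells (edgeR adjusted p = 7.16e-05 and 2.04e-09).

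ESRP1 showed opposite responses to DY131. This regulator of epithelial splicing had 40 and 34 reads in DU145-pc3.1, 19 and 16 in DU145-Esrrb, 94 and 163 in treated DU145-pc3.1 and 3 and 1 in treated DU145-Esrrb cells. Its level rose from 3.4 ± 0.581 to 12.5 ± 5.22 cpm in DU145-pc3.1 and fell from 1.54 ± 0.0998 to 0.252 ± 0.197 cpm in the DU145-Esrrb pool (SD, n = 2). The interaction was -4.48 ± 0.78 on the log2 scale (SE, edgeR adjusted p = 0.000485), a size that depends on counts at or below the floor of 3. The fall in DU145-Esrrb cells did not pass without library b (edgeR adjusted p = 0.105). ST14, an epithelial membrane protease, also split, from 17.1 and 15.6 to 19.9 and 30.2 cpm in DU145-pc3.1 and from 11.4 and 10.5 to 5.34 and 4.74 cpm in DU145-Esrrb cells. Its interaction was -1.74 ± 0.28 (SE, edgeR adjusted p = 0.00028). CLDN7, another claudin, had an interaction of -0.94 (edgeR adjusted p = 0.00191), and CLDN1 one of 0.87 (edgeR adjusted p = 3.78e-05). ESRP2, the other splicing regulator of the list, was at a mean of 62.7 cpm in DU145-pc3.1 cells. With DY131 it rose by 0.46 in DU145-pc3.1 and 0.39 in DU145-Esrrb cells on the log2 scale (edgeR adjusted p = 0.000172 and 0.000392). The interaction of ESRP2, -0.07 (edgeR adjusted p = 0.629), did not pass. In all, 4 of the 21 had a higher and 5 a lower response in DU145-Esrrb cells, against 16.1% and 17.6% of all tested genes. Between the treated pools 4 were higher and 10 lower, against 25.1% and 25.3%, and OVOL2, a factor that maintains epithelia, had a log2 fold change of -1.11 (edgeR adjusted p = 0.0399) on 6 to 24 reads a library. OVOL2 did not pass with DESeq2 (adjusted p = 0.196) or without either DU145-pc3.1 replicate, treated DU145-pc3.1 replicate 1 or treated DU145-Esrrb library b (-1.12 to -0.70, edgeR adjusted p = 0.0511 to 0.302).

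Catenins link cadherins to the cytoskeleton, and 4 of 5 were tested. JUP, which encodes plakoglobin, was at 111 and 105 cpm in DU145-pc3.1, 74.4 and 68.1 cpm in DU145-Esrrb, 67.3 and 76 cpm in treated DU145-pc3.1 and 38.7 and 44.5 cpm in treated DU145-Esrrb cells. It was lower with Esrrb alone and with DY131 in each pool, by -0.60, -0.60 and -0.77 on the log2 scale (edgeR adjusted p = 0.000318, 3.63e-05 and 2.94e-06). Between the treated pools the value was -0.78. Its interaction, -0.18 (edgeR adjusted p = 0.277), did not pass. CTNNA1 (alpha-catenin) rose with DY131 in DU145-pc3.1 cells (0.29, edgeR adjusted p = 0.000735) and was lower in treated DU145-Esrrb than in treated DU145-pc3.1 cells (-0.34, edgeR adjusted p = 0.000103), by -0.17 with the junction offset. CTNNB1 (beta-catenin) had a log2 fold change of 0.16 (edgeR adjusted p = 0.0189) with DY131 in DU145-Esrrb cells, and of 0.30 with the junction offset. It did not pass in 6 of 17 alternatives, among them the length and GC offset (0.06) and the fits without either DU145-Esrrb replicate or treated library a (0.13 to 0.17). CTNND1 passed in none of the 5 comparisons.

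Of 12 further EMT transcription factors, 8 were tested. With Esrrb alone 0 passed in edgeR, against 4.18% of all tested genes, and 0 in DESeq2. An unadjusted p under 0.05 in edgeR was found for 2 of the 8. The share of all tested genes at that limit was not computed, so this count says nothing particular about these factors. With DY131 in DU145-pc3.1 cells, HMGA2 and SOX9 rose and 2 of the 8 fell, against 18.9% of all tested genes higher and 18.5% lower. KLF8 (-0.65, edgeR adjusted p = 0.0398) was one of these. Its call was lost in 11 of 19 alternatives, among them DESeq2 and 7 of 8 fits with a single library left out, in which the value ran from -1.09 to -0.32. In DU145-Esrrb cells HMGA2 and SOX9 rose and SNAI3 (-1.42) and TCF3 (-0.25) fell, against 29.2% and 29.5%. SNAI3 had 18 and 19 reads before and 4 and 6 reads after DY131. Only the untreated DU145-Esrrb libraries and DU145-pc3.1 replicate 2 reached 1 cpm for SNAI3. Without the former it would not have met the low-count filter, so the filter itself favoured a fall. SNAI3 did not pass with DESeq2 (adjusted p = 0.123) or without DU145-Esrrb replicate 2 or either treated library (-1.63 to -1.25). TCF3 did not pass without treated library b (-0.17) or with the junction offset (-0.14). HMGA2, an architectural chromatin protein, was at 6.2 and 6.6 cpm in DU145-pc3.1, 5.34 and 6.8 cpm in DU145-Esrrb, 11.6 and 9.51 cpm in treated DU145-pc3.1 and 26.6 and 29.8 cpm in treated DU145-Esrrb cells. The treated libraries of both pools lay above all untreated ones. Its log2 fold changes with DY131 were 0.72 and 2.22, and the interaction was 1.50 ± 0.23 (SE, edgeR adjusted p = 0.000205). SOX9, at 18.1 and 17.1 cpm in DU145-pc3.1 and 41.3 cpm in both treated DU145-Esrrb libraries, had log2 fold changes of 0.88 and 1.57 and an interaction of 0.70 (edgeR adjusted p = 0.0109). That interaction did not pass with the junction offset (0.43, edgeR adjusted p = 0.124) or without DU145-pc3.1 replicate 1 (0.64) or DU145-Esrrb replicate 1 (0.55). FOXC1 was the most different between the treated pools, with 6.12 and 4.18 cpm in DU145-Esrrb against 1.68 and 1.39 cpm in DU145-pc3.1 cells (1.72 on the log2 scale, edgeR adjusted p = 0.000267). There 5 of the 8 were higher and 1 was lower, against 25.1% and 25.3% of all tested genes. KLF8 (0.68) was among the higher ones, but did not pass in 6 of 17 alternatives, among them DESeq2, the junction offset (0.46) and the fits without treated DU145-pc3.1 replicate 2 (0.35) or either treated DU145-Esrrb library (0.65 and 0.69).

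The mesenchymal list held 22 genes of collagens, other matrix proteins and surface receptors, and 12 were tested. With Esrrb alone 1 was higher, COL6A2 (0.32), against 1.68% of all tested genes. It did not pass without either DU145-pc3.1 replicate or DU145-Esrrb replicate 1 (0.24 to 0.37). With DY131, 3 were higher and 2 lower in DU145-pc3.1 cells, against 18.9% and 18.5% of all tested genes. In DU145-Esrrb cells 2 were higher and 4 lower, against 29.2% and 29.5%. LOX, which cross-links collagen, was at 25.1 and 27.7 cpm in DU145-pc3.1, 22.4 and 22.5 cpm in DU145-Esrrb, 33.4 and 34.2 cpm in treated DU145-pc3.1 and 59.9 and 65.6 cpm in treated DU145-Esrrb cells. Its interaction was 1.13 ± 0.13 (SE, edgeR adjusted p = 1.21e-05). Most others that passed in DU145-Esrrb cells went down. S100A4, a calcium-binding protein of motile cells, fell with DY131 by -1.03 in DU145-pc3.1 and -1.62 in DU145-Esrrb cells, the former not passing without DU145-pc3.1 replicate 2 (-0.84, edgeR adjusted p = 0.0529). AXL, a receptor tyrosine kinase, was at 1066 and 1073 cpm in untreated and at 720 and 699 cpm in treated DU145-Esrrb cells (-0.59, edgeR adjusted p = 6.84e-07), with an interaction of -0.72. With the junction offset these values of AXL were -0.30 and -0.41, and both passed. COL6A2 had a log2 fold change of -0.52 with DY131 in DU145-Esrrb cells and of 0.00 with the junction offset. TNC rose in both pools (0.37 in DU145-pc3.1 and 0.38 in DU145-Esrrb cells), but in DU145-pc3.1 cells it did not pass without treated replicate 1 (0.15) or with the length and GC offset (0.21). ACTA2, with 7 reads in each treated DU145-pc3.1 library, had -1.19 there (edgeR adjusted p = 0.0394), a call lost in 9 of 18 alternatives, DESeq2 and the fits without any single library of the 4 compared among them (-1.36 to -0.98). Between the treated pools FBN1 (-0.77, edgeR adjusted p = 0.0352) and COL1A1 (-0.69, edgeR adjusted p = 0.0497) passed as lower. FBN1 lost its call in 6 of 17 alternatives, among them DESeq2, the junction offset (-0.47) and the fits without treated DU145-pc3.1 replicate 1 (-0.72) or either treated DU145-Esrrb library (-0.88 and -0.68). COL1A1 lost it in 11 of 17, among them DESeq2, the junction offset (-0.14) and 7 of 8 fits with a single library left out (-0.30 without treated DU145-pc3.1 replicate 1). Of the genes named from these lists, CLDN1, CLDN4, CLDN7, ST14, ELF3, ESRP1, HMGA2, SOX9, LOX and S100A4, and of the members ZEB1, also stand in gene lists that the study drew from these libraries. The values of these and of all other genes here come from the same libraries, so they are no independent evidence.

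**Figure D5:**
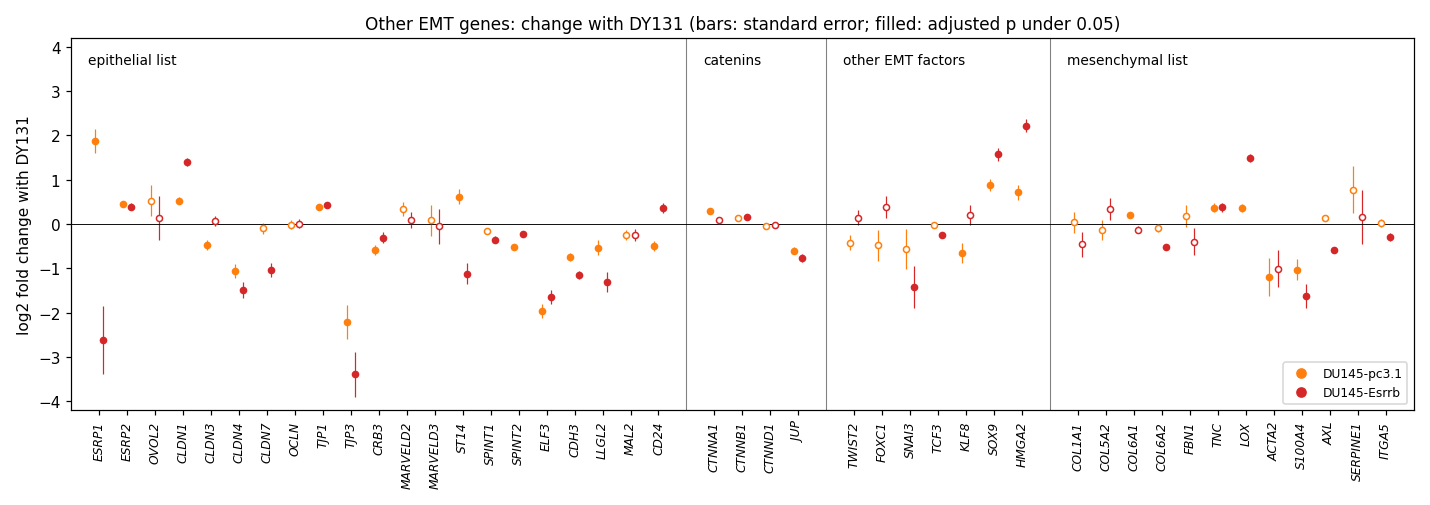
Log2 fold change with DY131 of the tested genes of the epithelial, catenin, further EMT factor (without 1 gene not reported here) and mesenchymal lists in DU145-pc3.1 (orange) and DU145-Esrrb cells (red), with bars of 1 standard error and filled points at an adjusted p under 0.05. ESRP1 (1.87 and -2.61) and ST14 (0.62 and -1.12) lie on opposite sides of 0, TJP3, ELF3 and CLDN4 lie below 0 in both pools, and HMGA2, SOX9 and LOX lie above 0 in both.

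The genes whose levels were most like those of CDH1 and VIM were sought among 9989 genes with a mean of at least 10 cpm, by Pearson's correlation of log2 cpm over the 8 libraries. For CDH1 they were UBE2L6 (r = 0.987), ZNFX1-AS1 (r = 0.986) and JUND (r = 0.986). The means of UBE2L6, a ubiquitin-conjugating enzyme, were 43.2, 31.8, 25.9 and 20.2 cpm in the order DU145-pc3.1, DU145-Esrrb, treated DU145-pc3.1 and treated DU145-Esrrb cells. For VIM they were the metal transporter SLC39A14 (r = 0.997), FAM136A (r = 0.995) and SS18 (r = 0.995). The means of SLC39A14 were 307, 295, 343 and 383 cpm in the same order. The 8 points fall into 4 groups of 2, so these values describe the order of the groups.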

How the data were processed

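Per the study's methods, polyadenylated RNA was sequenced as single reads of 50 bases with a stranded kit, 8 libraries in 1 lane, trimmed with the FASTX-Toolkit and mapped to hg18 with TopHat2. The authors deposited raw counts of reads per gene, made with their own program and not normalized. Columns were assigned from the sample descriptions. Here, the 13856 genes that reached 1 cpm in 2 or more libraries were compared with edgeR 4.0.16 in R 4.3.3, with TMM factors of 0.97 to 1.02, quasi-likelihood F tests and adjustment by Benjamini and Hochberg's method. Cpm use effective library sizes, and standard errors come from the F statistic. Between 7858743 and 11551690 counts per library set the precision. Alternatives were edgeR's exact test (the study's test), DESeq2 1.42.0, other scaling and filters, offsets for length with GC content and for exon junctions, single libraries left out and a replicate block. Transcript lengths and positions come from GENCODE 29 on GRCh38 and not from hg18, and 517 of 23391 genes were not matched to it. The quasi-likelihood test, for 1 comparison of 2 groups, and the junction offset were tested on simulated data. The other steps were not. All 10 members are named, and from each further list up to 4 passing genes with the largest fold change per comparison. CLDN1, ST14, JUP and others were followed through all comparisons once named, and ESRP2 is given in addition, beside ESRP1. The members and lists were chosen with earlier results of these data known. Some genes of these lists were counted but are not reported here by name.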

Additional observations from a re-analysis of the deposited data

Results flagged for a closer look

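The interaction test of edgeR found a different response to DY131 in the 2 cell pools for 3 of the EMT genes. The response of DU145-Esrrb cells minus that of DU145-pc3.1 cells was -0.46 for EPCAM, 0.44 for VIM and 0.49 for ZEB1 on the log2 scale. EPCAM was lower in both DY131-treated DU145-Esrrb libraries than in both untreated ones, and higher in both treated DU145-pc3.1 libraries than in both untreated ones. VIM and ZEB1 were higher in both treated libraries of each pool. With the junction offset, VIM passed at 0.58, and EPCAM (-0.27) and ZEB1 (0.31) did not pass. With 2 libraries in each group, no group was large enough to look for a library that stands apart from the others of its group.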

How the results depend on the processing

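Across all results and alternatives, 1504 values kept their direction and their side of the threshold or moved little, 118 lost their call, 13 gained it and 18 changed sign. With single libraries left out, the number of EMT genes that passed ranged from 0 to 1 for Esrrb alone, 3 to 4 for DY131 in DU145-pc3.1 cells, 4 to 7 for DY131 in DU145-Esrrb cells (4 without either treated library), 3 to 6 between the treated pools (3 without library a) and 2 to 4 for the interaction. It was 0 with DESeq2 for Esrrb alone (main 1), 5 with the length and GC offset for DY131 in DU145-pc3.1 cells (main 3) and 1 with the junction offset for the interaction (main 3). The VIM to CDH1 ratio per kilobase was 23.9, 32.4, 54.8 and 94.7 in the order DU145-pc3.1, DU145-Esrrb, treated DU145-pc3.1 and treated DU145-Esrrb, because VIM has the shorter transcript. The cause of the other shifts was not tested.

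Of the values that changed sign, the interactions of COL6A2 (-0.42) and COL6A1 (-0.33) had passed, and with the junction offset they were 0.10 and 0.17. The others had not passed. ZEB1 with Esrrb alone was 0.00 with library size alone. In the interaction, CDH1 was -0.04 with the length and GC offset, and with the junction offset FN1 was 0.09. With single libraries left out, the ranges with Esrrb alone were -0.39 to 0.03 for FN1, -0.09 to 0.08 for ZEB1 and -0.18 to 0.68 for ZEB2. For DY131 in DU145-pc3.1 cells ZEB2 ranged from -0.53 to 0.32. In the interaction the ranges were -0.21 to 0.33 for CDH1, -0.45 to 0.10 for FN1, -0.23 to 0.04 for SNAI1 and -0.03 to 0.53 for SNAI2.

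Over all tested genes, 579 passed with Esrrb alone, against 317 with DESeq2, 948 with no filter, 1209 with only the 4 libraries compared, 370 in the 6 numbered libraries without a block and 140 to 1523 with single libraries left out. Past both thresholds there were 80, against 48 with DESeq2, 43 with at least 10 counts in every library and 46 to 126 with single libraries left out. That minimum also took DY131 in DU145-pc3.1 cells from 580 to 315, DY131 in DU145-Esrrb cells from 1666 to 1090 and the treated pools from 1137 to 721 genes, since it tests fewer genes. DY131 in DU145-pc3.1 cells went from 5185 to 3418 with single libraries left out, and the interaction from 4674 to 2897 with DESeq2.

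Replicate numbers were taken from the sample titles for 6 libraries, and same-numbered libraries did not deviate together (correlations of 0.11, 0.0173 and -0.067). The count columns number some of these libraries differently. Which libraries belong together is therefore not known, and the correlations cannot show whether they were paired. With the replicate number as a block, 1 member passed with Esrrb alone and 4 with DY131 in DU145-pc3.1 cells, against 1 and 3 in these libraries without it. The gain was EPCAM (0.18, adjusted p = 0.0451 in edgeR). No paired analysis was possible because the treated DU145-Esrrb columns carry no number, for the comparisons that use them. With 2 libraries a group, a library left alone after leaving out its partner was assumed to vary like the other groups. Genes under 0.254 to 0.391 cpm, the floor of 3 counts, were taken as not detectable.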
